A study of Mus musculus with 16 samples.

Results

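The OCT4 peaks at 10 genes of the fibroblast growth factor (FGF) and extracellular signal-regulated kinase (ERK) pathway in mouse embryonic stem (ES) cells were examined. The genes were the ligands Fgf4 and Fgf5, the receptors Fgfr1 and Fgfr2, the inhibitors Spry2, Spry4, Spred1 and Dusp6, and the transcription factors Etv4 and Etv5. A peak was assigned to a gene when its midpoint lay in the gene body or within 50 kb of any annotated transcript start, which gave 97 of the 26704 OCT4 peaks. Of these, 50 fell to Fgfr2, because 1 annotated Fgfr2 transcript (Fgfr2-217) spans 2.96 Mb, from chr7:130162451 to chr7:133123350, while the next longest spans 104 kb. Without that transcript, a choice made after the data were seen, Fgfr2 had 6 peaks and the 10 genes had 53. The 44 peaks that were lost lay nearest to the starts of 20 different genes, and only 1 of them was nearest to Fgfr2. The 53 peaks are therefore described singly, and counts are given for both sets. No peak was assigned to more than 1 of the 10 genes.

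OCT4 binding had been mapped by chromatin immunoprecipitation and sequencing (ChIP-seq) in 2TS22C cells, an ES cell line in which a Tet-Off Sox2 transgene is the only source of SOX2. The 4 OCT4 libraries were 2 of SOX2ON cells, left without doxycycline, and 2 of SOX2OFF cells, given 1 µg/ml doxycycline, both for 26 h. All cells grew in serum with LIF, the GSK3 inhibitor CHIR99021 at 3 µM and the MEK inhibitor PD184352 at 0.8 µM, so an inhibitor of the kinase above ERK was present in every sample. The other 12 of the 16 libraries, of BRG1 and H3K27ac in 2TS22C and ZHBTc4 cells, were not analysed here. The deposited list merges OCT4 peaks into 1 set of coordinates on mm10 (GRCm38), with no height, no p-value and no column for a library. It therefore has no replicates and no depth, SOX2ON and SOX2OFF could not be compared, and no test between groups was possible. Which libraries contributed to a peak is not stated, and the identity of the cells could not be checked against marker genes in a list of coordinates.

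FGF ligands bind receptor tyrosine kinases at the cell surface, which signal through RAS and MEK to ERK. In ES cells FGF4 is the main ligand that the cells make themselves, and ERK signalling prepares them to leave the naive state. Fgf5 is widely used as a marker of the state that follows. The pathway limits itself: Sprouty and SPRED proteins act below the receptor, DUSP6 removes phosphate from ERK, and the ETS factors ETV4 and ETV5 carry the signal to target genes. OCT4 binds DNA through its POU domain at an octamer, often beside a site for SOX2.

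The sequences under the peaks were read from the reference genome and searched on both strands. An octamer-type site was ATGCNAAT, a SOX core was CCATTGT or CCTTTGT, and a composite match was the octamer ATTTGCAT directly followed by AACAATG with at most 3 mismatches over its 15 positions. A SOX and octamer-type pair was CATTGT or CTTTGT, 0 to 10 bases, and then ATGCNAAT on the same strand. These definitions overlap, and a match describes letters, not occupancy. Fgf4 carries a known enhancer in its last exon that OCT4 and SOX2 bind together. A peak of 599 bp (chr7:144864223-144864821) lay in the 3′ UTR of Fgf4 and was the only peak of the 53 with such a pair. The pair is shown in capitals, with the SOX letters first and 4 bases between both elements.
Fgf4, chr7:144864388-144864417, plus strand: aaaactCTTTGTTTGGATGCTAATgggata

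These 18 bases occurred in 1 of the 26704 peaks, the one at Fgf4. They were read from that peak, so this count is a description only. A pair was found in 219 peaks, or 0.82% of the list. The spacing of 4 bases was less frequent, at 11 peaks, than spacings of 6 bases (112 peaks) and 1 base (58 peaks). By the letters of the pair, the full composite read on its other strand has a spacing of 1 base.

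In the 53 peaks there were 13 octamer-type sites, at 8 of the 10 genes. Of these sites, 8 read ATGCAAAT, 4 read ATGCTAAT, 1 read ATGCCAAT and 0 read ATGCGAAT. The peaks of Fgf5 and Fgfr2 held none. One window of 28 bases is given for each of 6 genes to show how the flanks differ around the same octamer (capitals), read on the strand that carries it.
Fgfr1, chr8:25513506-25513533, plus strand: cttctcagaaATGCAAATtgtttgctct
Spry2, chr14:105859220-105859247, minus strand: tatgttacatATGCAAATacccaaccac
Spred1, chr2:117122915-117122942, minus strand: gaagtgtgctATGCAAATgagggcgatt
Dusp6, chr10:99261472-99261499, plus strand: gtgattaaaaATGCAAATtgctttgcgg
Etv4, chr11:101787654-101787681, plus strand: aaattataaaATGCAAATgtggacttta
Etv5, chr16:22411955-22411982, minus strand: cctggttactATGCAAATgcctccctgg

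In these windows the octamer lay 97 bp from the peak midpoint at Fgfr1, 4 bp at Spry2, 28 bp at Spred1, 6 bp at Dusp6, 14 bp at Etv4 and 40 bp at Etv5. Composite matches were found in 4 of the 53 peaks. The closest to the full composite, with 2 mismatches, was 27.4 kb downstream of the RefSeq start of Fgf4, in a peak nearest to Fgf15. The matches at Fgfr1 and Etv5 each had 3 mismatches. The Fgfr1 match lay in the 5′ UTR of the neighbouring gene Letm2. The composite letters are in capitals.
Fgf4, chr7:144888772-144888800, minus strand: gaggcggAATTGCATAAGAATGggggtgt
Fgfr1, chr8:25596999-25597027, plus strand: ctcagctACTGGCATAACACTGcgatctc
Etv5, chr16:22402724-22402752, plus strand: tgtggcaGTTTGAATAAGAATGgccctca

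At all 10 genes at least 1 OCT4 peak was found, against 73% of the 21938 protein-coding genes under the same rule. With the long Fgfr2 transcript left out, the counts were 6 for Fgf4, 1 for Fgf5, 6 for Fgfr1, 6 for Fgfr2, 7 for Spry2, 8 for Spry4, 3 for Spred1, 4 for Dusp6, 3 for Etv4 and 9 for Etv5. Their median was 6, and that of protein-coding genes was 2. The counts of protein-coding genes kept every transcript, although 56 protein-coding genes have one over 1 Mb. At least 6 peaks, a count that 5.7% of protein-coding genes reached, were found at 6 of the 10 genes. Of the 10 genes, 9 lay above the median. Etv5 had more peaks than 98.7% of protein-coding genes, Spry4 more than 98.0% and Spry2 more than 96.6%, whereas Fgf5, with 1 peak, had more than 27%, a value that became 55.7% when only 10 kb around the starts was allowed. Per length of window there were 80.0 peaks per Mb at Spry4, 70.0 at Spry2, 65.3 at Etv5 and 9.98 at Fgf5, beside a median of 10.0 over protein-coding genes and 38.8 over the 10 genes. With every transcript kept, the 50 peaks of Fgfr2 were the largest count of any protein-coding gene, but its density was 16.4 per Mb, above that of 57.8% of genes. The genes are a chosen list and peaks that lie close together are not independent, so these counts are descriptions without a test.

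**Figure D1:**
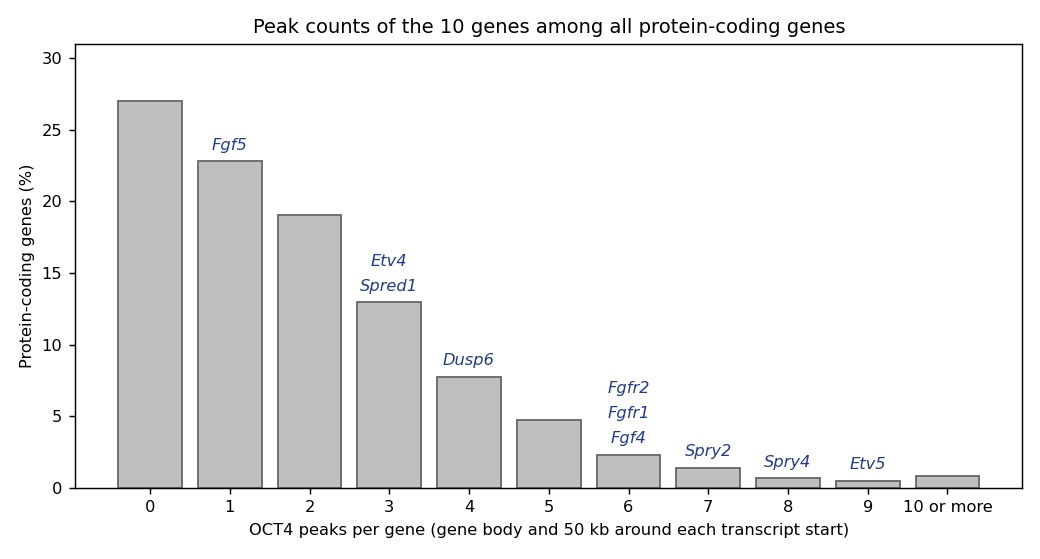
Bars give the percentage of 21938 protein-coding genes (y axis) with each number of OCT4 peaks (x axis), every transcript kept. The names above the bars place the 10 genes, with the long Fgfr2 transcript left out. Fgf5 stands at 1 peak, and Spry2, Spry4 and Etv5 stand at 7, 8 and 9, where few genes lie.

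The peaks were spread differently around the genes. Of the 53 peaks, 27 lay in introns, 20 were intergenic, 2 lay in coding exons, 2 in other exons, 1 in a 5′ UTR and 1 in a 3′ UTR. In all, 24 lay inside the body of the gene they were assigned to, 16 upstream of it and 13 downstream. The rule takes gene bodies and windows around starts, so these counts were partly set by it. Each of the 10 genes had a peak within 5 kb of 1 of its annotated starts (22 peaks), and 8 peaks at 6 genes lay within 1 kb of one. Such a distance is easier to meet where many starts are annotated, as at Fgfr1 (18) and Etv4 (10), than at Spry2 and Spry4 (1 each). Counted from the RefSeq start alone, 4 peaks lay within 1 kb, at Spry4, Dusp6, Etv4 and Etv5. A further 19 peaks lay over 20 kb from any start of their gene. For 49 of 53 peaks the nearest protein-coding start was that of the gene itself, and of the other 4, 2 were nearest to Fgf3, 1 to Fgf15 and 1 to Letm2. The counts in this paragraph were not made for all peaks or all protein-coding genes, so they describe the 10 genes only.

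**Figure D2:**
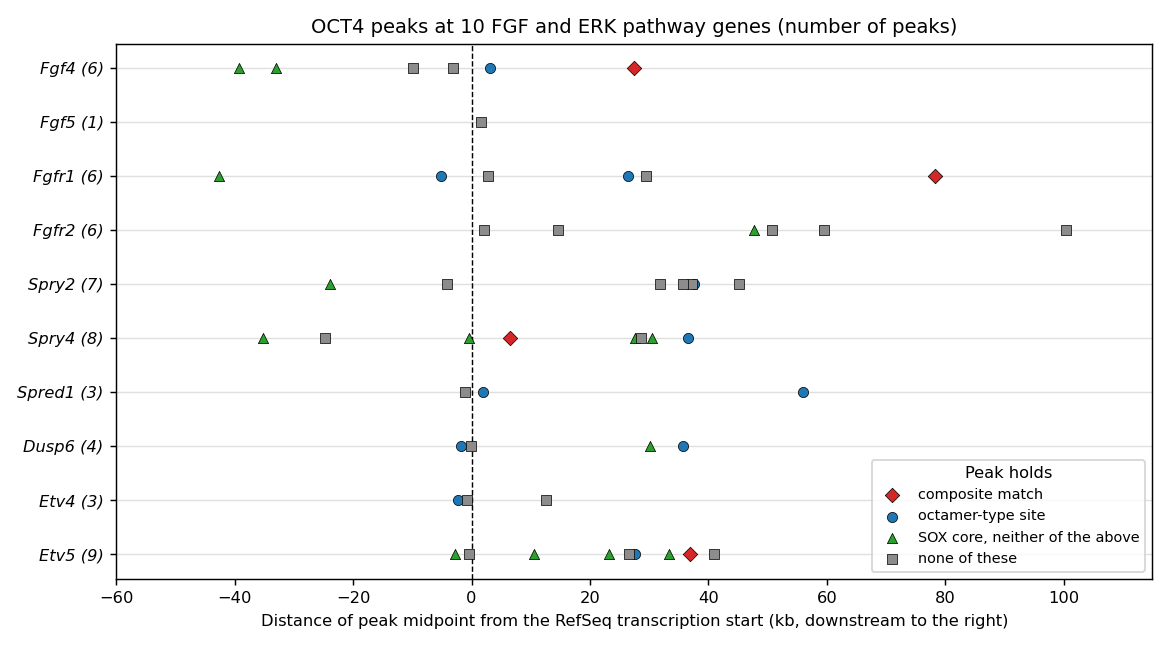
Each symbol is 1 of the 53 OCT4 peaks, placed by the distance of its midpoint from the RefSeq start of its gene (x axis, kb, downstream to the right), with 1 row per gene and the number of peaks in brackets. Shape and colour give the first motif class that the peak holds, in the order of the key. Spry2 and Spry4 have groups of peaks 27.5 to 45.1 kb downstream, and the peaks of Etv5 lie mostly within the gene.

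Of the ligands, Fgf4 had 6 peaks and Fgf5 had 1. Fgf4 (chr7:144847367-144865243, plus strand) has a RefSeq start at 144861386 and a second annotated start farther upstream. Peaks of 329 and 228 bp lay 39.3 and 33.1 kb upstream of the RefSeq start, in intergenic DNA nearer to the start of Fgf3 (15959 and 9777 bp away), and each held a SOX core. Peaks of 234 bp and 411 bp lay 9.87 kb and 3.14 kb upstream of the RefSeq start, in introns of the longer transcript, and held no octamer-type site, SOX core or composite match. The widest peak, of 599 bp, was the one in the 3′ UTR described above. The last, of 483 bp and with a GC content of 58.2%, lay 27.5 kb downstream, nearest to Fgf15 (7673 bp), and held the composite match with 2 mismatches. Because Fgf3, Fgf4 and Fgf15 neighbour each other, 3 of the 6 peaks were nearest to Fgf4 itself. Fgf5 (chr5:98254184-98277030, plus strand) had a single peak of 208 bp at chr5:98255742-98255949. It lay in an intron, 1.66 kb downstream of the RefSeq start. It was the narrowest of the 53 peaks and held none of the OCT4 or SOX2 motifs.

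Both receptors had 6 peaks by the shorter models. Fgfr1 (chr8:25513654-25575718, plus strand), the receptor that carries most FGF4 signalling in ES cells, has 18 annotated starts. Its peak of 418 bp (chr8:25513408-25513825) was centred 38 bp upstream of the most upstream start and 5.14 kb upstream of the RefSeq start, and held both an octamer-type site and a SOX core. The bases of this peak before the annotated start follow, with 1 octamer-type site and the adjoining TTCTCAGAA, which has the STAT-type pattern TTCNNNGAA, in capitals.
Fgfr1, chr8:25513408-25513653, plus strand: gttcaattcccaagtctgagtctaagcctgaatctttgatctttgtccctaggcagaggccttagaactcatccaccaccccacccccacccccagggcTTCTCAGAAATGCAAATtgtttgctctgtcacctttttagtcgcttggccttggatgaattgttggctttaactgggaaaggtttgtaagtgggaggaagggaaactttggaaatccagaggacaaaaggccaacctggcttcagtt

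This stretch of 246 bases had a GC content of 48.0% and 1 CpG. The STAT-type letters lay outside the central 200 bp in which that pattern was counted over all peaks. Peaks of 345, 477 and 373 bp at Fgfr1 were intronic and 2.82, 26.4 and 29.4 kb downstream of the RefSeq start, and that of 477 bp held an octamer-type site. A peak of 587 bp lay 42.7 kb upstream with a SOX core, in an intron of the annotated gene Gm31045. The peak of 252 bp in the 5′ UTR of Letm2 was centred 43 bp from the start of Letm2 and 78.3 kb downstream of that of Fgfr1. Fgfr2 (chr7:130162451-130266263 by its other transcripts, minus strand) had all 6 peaks in its body. They were 247 to 510 bp wide and lay 2.03 to 100.3 kb downstream of the RefSeq start, and the only OCT4 or SOX2 motif among them was a SOX core in the coding exon peak (chr7:130218958-130219204). An octamer-type site, composite match or SOX core was thus in 4 of 6 peaks at Fgfr1 and 1 of 6 at Fgfr2, a difference that was not tested.

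The 4 inhibitor genes had 22 of the 53 peaks, and all 22 were nearest to the start of their own gene. Only 3 of them lay in a gene body. Dusp6 (chr10:99263231-99267489, plus strand), which encodes an ERK phosphatase, had 4 peaks. One of 393 bp (chr10:99262960-99263352) was centred 75 bp upstream of the start. Its bases before the start are shown because this peak spans the promoter of Dusp6, with a GC content of 55.4% and 16 CpG over 271 bases, and none of the patterns searched for was found in these bases, so there are no capitals.
Dusp6, chr10:99262960-99263230, plus strand: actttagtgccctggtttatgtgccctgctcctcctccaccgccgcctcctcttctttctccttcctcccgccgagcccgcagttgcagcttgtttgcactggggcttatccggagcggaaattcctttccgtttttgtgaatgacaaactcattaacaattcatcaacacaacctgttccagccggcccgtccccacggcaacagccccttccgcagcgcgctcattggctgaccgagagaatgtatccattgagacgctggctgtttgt

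The next peak upstream, of 469 bp (chr10:99261257-99261725), was 1.74 kb from the Dusp6 start. It had the highest GC content of the 53 peaks, 63.3%. Within its central 200 bp it held an octamer-type site and a nuclear receptor site (AAGGTCA, here on the other strand), 60 bases apart, both in capitals.
Dusp6, chr10:99261391-99261590, plus strand: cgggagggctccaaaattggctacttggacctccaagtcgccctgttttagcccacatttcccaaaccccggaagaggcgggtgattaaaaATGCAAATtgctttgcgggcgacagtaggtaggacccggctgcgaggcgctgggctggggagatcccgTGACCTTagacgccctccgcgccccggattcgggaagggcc

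The other peaks of Dusp6 lay 27.7 and 33.3 kb downstream of its nearest start and were 416 and 765 bp wide. The wider one overlapped an exon of the annotated gene B530045E10Rik and held an octamer-type site and a SOX core. Spred1 (chr2:117121374-117182279, plus strand), which encodes a membrane-bound inhibitor of RAS signalling, had 3 peaks. One of 571 bp lay 1.41 kb upstream of a start without any of the 3 motifs. Peaks of 220 bp and 230 bp lay in introns, 1.32 and 55.4 kb downstream of the nearest start, and each held an octamer-type site.

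Spry2 (chr14:105891947-105896819, minus strand) had 7 peaks, none in its short gene body. A group of 5 lay within 13.7 kb (chr14:105851420-105865107), 31.8 to 45.1 kb downstream of the start. Of these 5, 3 were in introns of the annotated gene Gm48970, and 1 held an octamer-type site, 4 bp from its midpoint. On the upstream side, a peak of 631 bp lay 4.10 kb from the start and the widest, of 798 bp, lay 24.0 kb away and held a SOX core. Spry4 (minus strand) had 8 peaks, arranged in a similar way. One peak of 652 bp was centred 294 bp upstream of its start and held a SOX core. A group of 4 peaks lay within 9.41 kb, 27.6 to 36.6 kb downstream. An intronic peak 6.64 kb downstream held both an octamer-type site and a composite match. Upstream, peaks lay 24.7 and 35.1 kb away, and the latter, 1036 bp wide with a SOX core, was the widest of the 53 and the only one over 1 kb. The peaks on the downstream side were under 300 bp wide at both Sprouty genes, except 1 of 647 bp at Spry4 and 1 of 504 bp at Spry2. In 2 of the group of 4 at Spry4 over 50% of the bases were repeats (62.8% and 60.6%).

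**Figure D3:**
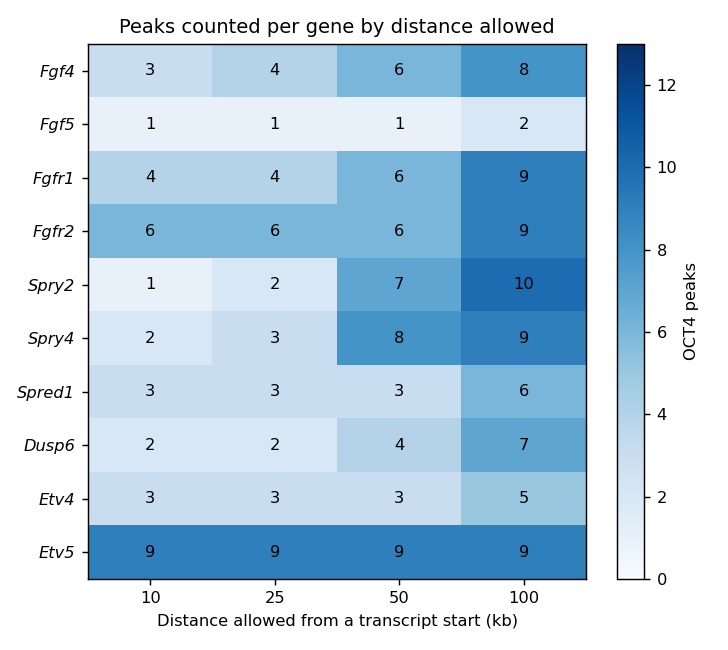
Numbers and shading give the OCT4 peaks counted at each gene (rows) when the distance allowed from a transcript start was 10, 25, 50 or 100 kb (columns), gene bodies always included and the long Fgfr2 transcript left out. Etv5 keeps 9 peaks throughout, while Spry2 goes from 1 to 10 and Spry4 from 2 to 9.

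The counts of the Sprouty genes depended on the distance allowed. Within 10 kb Spry2 had 1 peak, more than 55.7% of protein-coding genes, and Spry4 had 2, more than 80.9%. Within 100 kb they had 10 and 9. By contrast, Etv5 had 9 peaks at each of the 4 distances, and Fgf5, Fgfr2, Spred1 and Etv4 had the same counts from 10 to 50 kb. The median over protein-coding genes was 0 at 10 kb, 1 at 25 kb and 3 at 100 kb.

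Etv4 and Etv5 encode ETS transcription factors whose genes are switched on by ERK signalling. Etv4 (chr11:101769742-101785371, minus strand) had 3 peaks. Peaks of 337 and 393 bp lay 0.655 and 2.31 kb upstream of the nearest start, the latter with an octamer-type site 14 bp from its midpoint and a SOX core. A peak of 385 bp lay in an intron, 0.510 kb upstream of the start of a short transcript, and held none of the 3 motifs. Etv5 (chr16:22381309-22439719, minus strand) had 9 peaks, the most of the 10 genes, of which 7 were in its body. Of these, 6 lay within 18.1 kb (chr16:22398426-22416520). The widest, of 856 bp (chr16:22412490-22413345), overlapped a coding exon and held none of the 3 motifs, and its neighbour of 252 bp (chr16:22411883-22412134) held both an octamer-type site and a SOX core. The promoter peak, of 491 bp (chr16:22439732-22440222), was centred 258 bp upstream of the start and also held none. A SOX core was found in 5 of the 9. The intronic peak with the composite match (chr16:22402531-22402970, 440 bp, 51.4% repeats) also held a nuclear receptor site, 16 bases from that match. Its central 200 bp are given on the strand of the gene with both in capitals, each as its reverse complement.
Etv5, chr16:22402650-22402849, minus strand: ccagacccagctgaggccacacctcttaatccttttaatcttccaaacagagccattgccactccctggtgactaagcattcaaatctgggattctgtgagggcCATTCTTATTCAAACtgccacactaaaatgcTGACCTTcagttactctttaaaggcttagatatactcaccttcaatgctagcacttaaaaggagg

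**Figure D4:**
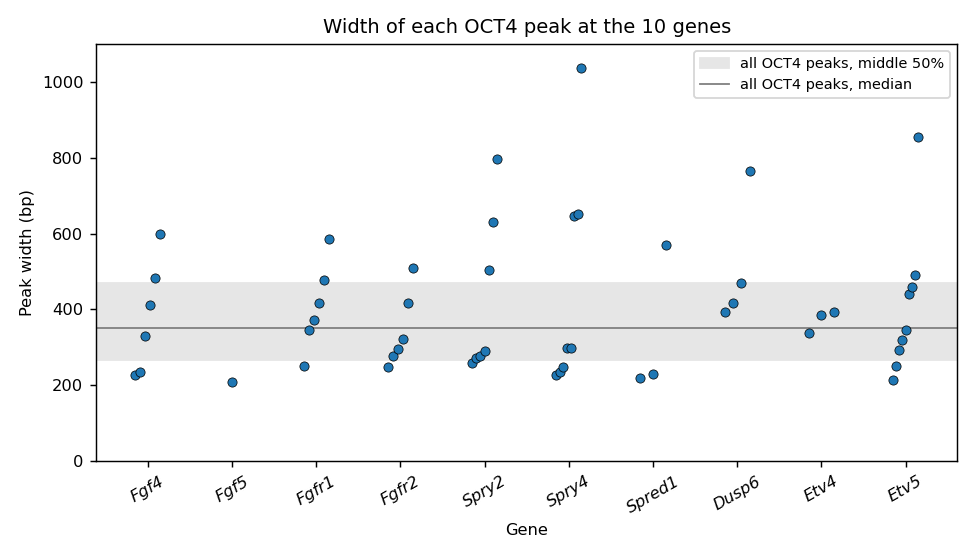
Points give the width in bp (y axis) of each of the 53 OCT4 peaks by gene (x axis), and the band and line give the middle 50% and the median of all 26704 peaks. The peak of 1036 bp at Spry4 and the peak of 856 bp at Etv5 stand highest.

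As a set, the peaks of the 10 genes were compared with the whole list in width and sequence. Their median width was 345 bp (208 to 1036 bp) for the 53 and 356 bp for the 97, beside 352 bp for all peaks. Their median GC content was 48.8% and 48.2%, beside 46.4%. An octamer-type site was found in 12 of the 53 peaks (22.6%, 95% Wilson interval 13.5 to 35.5%) and 21 of the 97 (21.6%), beside 18.2% of all peaks. A SOX core was found in 18 of 53 (34%, 22.7 to 47.4%) and 34 of 97 (35.1%), beside 30.3%. A composite match was found in 4 of 53 (7.55%, 2.97 to 17.9%) and 9 of 97 (9.28%), beside 11.5%. The SOX and octamer-type pair was found in 1 peak of either set. For these 4 motifs each interval held the share of the whole list, so no difference was detectable with this number of peaks. Peaks with over 50% of their bases in repeats were fewer, at 3 of 53 (5.66%, 1.94 to 15.4%) and 7 of 97 (7.22%, 3.54 to 14.2%), beside 15.6% of all peaks, which lay above both intervals. Of the 53 peaks, 29 (54.7%) held an octamer-type site, a composite match or a SOX core and 24 held none, beside 48.1% of all peaks with at least 1 of them. The intervals cover counting error only and take peaks as independent, which peaks that lie close together are not. The whole list was not limited to peaks near genes, as the peaks of the 10 genes were. No share was taken for the peaks of other genes, and the difference in repeats was not tested.

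**Figure D5:**
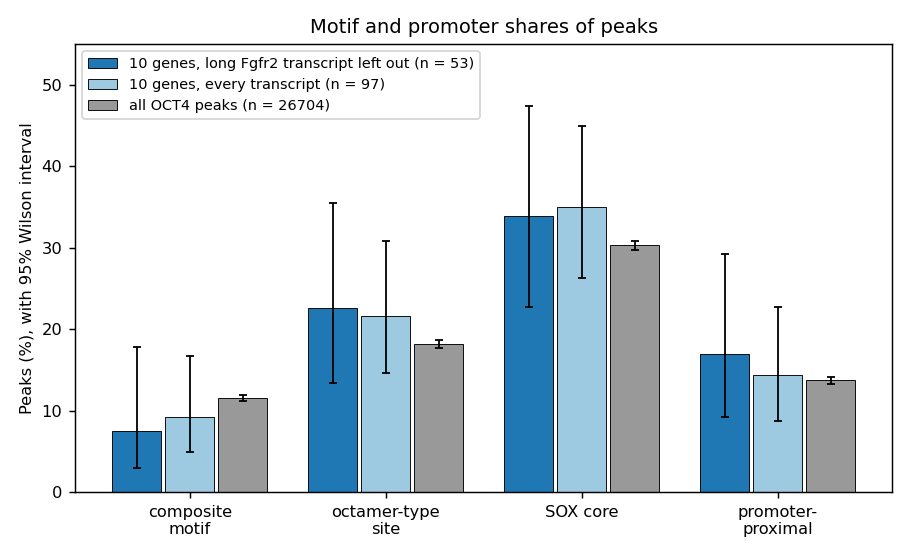
Bars give the percentage of OCT4 peaks (y axis) that hold a composite match, an octamer-type site or a SOX core, or that lie within 1 kb of a protein-coding start, for the 53 and 97 peaks of the 10 genes and all 26704 peaks. Lines are 95% Wilson intervals, and those of the 10 genes hold the share of all peaks in each class.

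Peaks within 1 kb of any protein-coding start made up 9 of the 53 (17%, 9.20 to 29.2%) and 14 of the 97 (14.4%), beside 13.8% of all peaks. These 9 peaks had a median GC content of 55.4% and a median width of 418 bp, and 1 held an octamer-type site. The 44 farther peaks had a median GC content of 48.7% and a median width of 326 bp, and 11 held an octamer-type site. SOX cores were in 2 of the 9 and 16 of the 44. Composite matches went the other way, in 2 of the 9 and 2 of the 44. This split was not made over all peaks, and with only 9 peaks near a start the differences were not tested.

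Patterns of other factors were counted in the central 200 bp of each peak. The ETS pattern CCGGAAGT, of the family of ETV4 and ETV5, was in 0 of the 97 peaks, which allows a share of up to 3.81% (upper Wilson bound), beside 0.359% of all peaks. The nuclear receptor site AAGGTCA was in 6 of the 53 and 8 of the 97, beside 8.48%. These 6 were 1 each at Fgfr2, Spry2, Spry4, Dusp6, Etv4 and Etv5. The STAT pattern TTCNNNGAA was in 2 of 53 and 4 of 97, beside 7.34%, the TFAP2 pattern GCCNNNGGC in 5 and 10, beside 6.93%, and the KLF pattern CCACACCC in 3 and 4, beside 3.6%. For each pattern the 95% Wilson intervals of the 53 and of the 97 held the share of all peaks.

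The rest of the pathway was described from a wider list of 68 genes matched by symbol (1 further gene, Spry3, was not matched), with 191 assignments of a peak to a gene. Of these genes 61 (89.7%) had at least 1 peak, beside the 73% of protein-coding genes, and 8 (11.8%) had at least 6, beside 5.7%. Their median of 3 peaks lay between that of the 10 genes and that of protein-coding genes. By role, the median was 3 for 16 ligands, 2 for 5 receptors and co-receptors, 3.5 for 8 adaptors, 3 for 15 genes of the kinase cascade, 2 for 12 inhibitors and 1.5 for 12 nuclear effectors. Among the genes with most peaks were Rps6ka1 (8), a kinase that ERK activates, Dusp1 (7), a phosphatase of MAP kinases, and the ligands Fgf18 (6) and Fgf3 (6). The window of Fgf3 overlaps that of Fgf4. No peak was assigned to Dusp4, Dusp7, Elk4, Fgf2, Fosl1, Kl or Rps6ka3. The highest counts of the wider inhibitors and effectors were 7 and 4. Of the 10 genes, Spry2 equalled the first and Spry4 exceeded it, and Etv5 exceeded the second. Dusp6 (4), Spred1 (3) and Etv4 (3) lay below them, and Spry2 had only 1 peak within 10 kb.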

How the data were processed

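OCT4 was mapped by ChIP-seq, with cells fixed in disuccinimidyl glutarate and formaldehyde. Per the labels and the study's methods, the authors aligned reads to mm10 with STAR 2.6.1c, removed duplicates with Picard, called peaks with MACS2 2.1.1.20160309 on paired ends and merged them with BEDTools. SAMtools and deepTools 3.1.3 are also named in the submitters' processing notes. The 1 file deposited by the authors and used here holds 3 columns of coordinates, with no count, signal or p-value, so narrow, weak and strong peaks count alike and depth is unknown. Merging can join neighbouring peaks, and the libraries merged are not given in the sources used here.

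Peaks were assigned with GENCODE M21, and sequences were read from GRCm38.p6, whose RefSeq annotation gave 1 start per gene. Scripts used Python 3.11.15, NumPy 2.4.6, pysam 0.24.0, samtools 1.23.1 and matplotlib 3.10.9. The assignment and motif searches were tested on simulated data. Shares have 95% Wilson intervals.

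The 10 genes and the wider list were chosen with earlier results of these data known. All 10 genes were named, and of the wider list the 5 with most peaks, 1 of which is not reported here. Sequences were chosen by motif, and the promoter and central stretches after the data were seen. Distances, transcript starts, gene bodies, peak widths, joining, repeats and motif settings were varied.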

Additional observations from a re-analysis of the deposited data

How the results depend on the processing

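No paired analysis was possible because the deposited coordinates come from merged libraries, and for the same reason none could be left out. The 97 peaks of the 10 genes became 78, 81 and 120 at 10, 25 and 100 kb, 65 when only peaks of at least 300 bp were kept, 54 with gene bodies left out, 50 when the nearest protein-coding start had to be the gene's own, and 53 without the long Fgfr2 transcript, an alternative chosen after seeing the data. The share with a composite match, 9.28%, became 2.06% at no more than 2 mismatches and 37.1% at 4. The share with an octamer-type site, 21.6%, became 13.4% for ATGCAAAT only, beside 10.96% of all peaks. The share with a SOX core, 35.1%, became 17.5% in the central 200 bp, beside 20.5% of all peaks. It thus lay above the share of all peaks over whole peaks and below it in the centre. Both 95% Wilson intervals held the share of all peaks. The share near a start, 14.4%, became 25.8% within 2.5 kb. Shares of all peaks at 2 or 4 mismatches or within 2.5 kb are not given here. For the number of peaks of the 10 genes, their shares and their median width there were 29 alternatives. Of these, 21 moved a result by less than its interval or spread, or by less than 1.5 times. The values 78, 81, 120 and 65 were among the 21. Counted together with the percentiles of each gene, 24 of 59 alternatives were classed as the same and 35 as moved. Small shifts of a percentile were classed as moved, such as Fgf4 from 94.3% to 91.5% at 10 kb. Of the 30 alternatives for percentiles, 28 lay above 50%. Among protein-coding genes, Fgf5 went from above 27% to above 55.7% at 10 kb and 44.2% by density, Spry2 from 96.6% to 55.7% at 10 kb, and Fgfr2 with every transcript kept from 99.995% to 57.8% by density. With no depth, a gene without a listed peak cannot be told from one whose peaks fell under the caller's threshold.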
